A study of Mus musculus with 12 samples.

Results

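The comparison concerned the high-fat against the low-fat hepatocyte fraction of mice that carry a knockout (KO) of *Ptprk*. Liver cells from fatty livers were separated by lipid content on a Percoll density gradient with differential centrifugation, a procedure the labels describe as leaving dead hepatocytes and the other cell types of the liver behind. PolyA RNA of both fractions was then sequenced. The 3 KO mice, called KO2, KO4 and KO6, gave 1 low-fat and 1 high-fat library each, so 6 of the 12 libraries of the study entered the comparison. The remaining 6 came from the low-fat and high-fat fractions of 3 wild-type (WT) mice, WT1, WT5 and WT6. Every group came from a steatotic liver. Mouse strain, sex, age, diet, the way the knockout was made and the lipid content of the fractions are not given in the sources used here. Of 52636 genes listed, 16563 reached a value of 10 or more in 3 or more of the 12 libraries, and these were compared between fractions within each mouse.

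*Ptprk* encodes a receptor-type protein tyrosine phosphatase of the R2B family, whose members bind their own kind on neighbouring cells and dephosphorylate proteins of cell junctions. Hepatocytes that store much triglyceride are less dense than lean ones, which is the basis of the separation. Hepatocytes also differ by position in the liver lobule: periportal cells, near the incoming blood, carry out gluconeogenesis, urea synthesis and amino acid breakdown, and pericentral cells, around the central vein, carry out glutamine synthesis and the cytochrome P450 metabolism of foreign compounds. Signalling by Wnt and R-spondin ligands, which come largely from endothelial cells of the central vein, maintains the pericentral programme. Stellate cells, the vitamin A-storing pericytes of the liver, carry lipid droplets of their own.

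All levels below are reads per 20 M, the scale of the deposited values, and differences are on the log2(value + 2) scale after rescaling between libraries. A gene was called changed at a limma adjusted p under 0.05. Estimated depth of the KO libraries ran from 15.1 to 24.3 M reads, and 3 reads corresponded to 2.47 to 3.98 reads per 20 M, a limit for counting error only. *Ptprk* itself was read at 1117, 1364 and 1333 reads per 20 M in the low-fat libraries of KO2, KO4 and KO6 and at 1217, 1204 and 1179 in their high-fat libraries. Its level in the WT libraries was higher, between 2174 and 2883. The log2 difference of *Ptprk* between KO fractions was -0.13 ± 0.07 (SE) with a limma adjusted p of 0.468. Which exons the knockout removes is not given in the sources used here, and reads of exons left in place would still be counted.

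A pair of KO libraries stood apart in ways the labels do not give. *Neat1*, a nuclear long non-coding RNA, was read at 9186, 50432 and 7683 reads per 20 M in the low-fat libraries of KO2, KO4 and KO6 and at 47556, 9973 and 6696 in the high-fat libraries. It was thus high in the KO4 low-fat and the KO2 high-fat library. *Malat1*, another nuclear RNA, was highest in the same 2 libraries, at 73160 and 104542. The KO4 low-fat library also had the highest levels of the white blood cell genes *Ccr2* (57 against 2 to 16 in the other 5 KO libraries) and *Csf3r* (90 against 7 to 50), and of the immediate early gene *Fos* (1577 against 69 to 612). Such differences were not confined to KO. *Neat1* was at 18656, 31131 and 5154 in the low-fat libraries of WT1, WT5 and WT6. In their high-fat libraries it was at 47272, 20472 and 5296. *Csf3r* was at 5, 48 and 3 in these low-fat and 77, 16 and 16 in these high-fat libraries. The stellate cell, sinusoidal endothelial, Kupffer cell and zonation lists are given below with and without KO2 and KO4. The other cell type lists are given with all 3 KO mice only.

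In the KO mice, 217 genes were higher and 65 were lower in the high-fat fraction, which is 1.31% and 0.392% of the genes tested and 1.7% together. The counts of called list members below are to be set beside these shares. The smallest limma adjusted p was 0.0307. The higher genes changed more: their median log2 difference was 1.93, and 184 of 217 exceeded 2-fold, whereas the median of the lower genes was -0.66 and 5 of 65 exceeded 2-fold. Over all genes tested the median was -0.03. In 199 of the 217 higher genes every high-fat library lay above every low-fat library, against 8.54% of all genes tested, and in 35 of the 65 lower genes every high-fat library lay below, against 2.64%. The genes were called from these same libraries, so the counts describe the called genes and give no separate evidence.

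These counts depended on the fit. The 12 libraries shared 1 estimate of the spread with 4 residual degrees of freedom, and 2457 of 16563 genes had an unadjusted p under 0.05. Counts of list members at that p below are to be set beside this share. A fit of the 6 KO libraries alone called 0 genes (1621 with an unadjusted p under 0.05), and a fit without the intensity trend of the variance called 3 higher and 0 lower. Without the mouse term 134 genes were called higher and 5 lower. Leaving out mouse KO4, KO6, WT5 or WT6 left 0 calls each, leaving out KO2 left 111 higher and 35 lower, and leaving out WT1 left 140 and 33.

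Genes known from stellate cells were among the largest rises of called genes with separate fractions and a mean level of 100 or more. The level of *Col3a1*, a fibrillar collagen chain, was 15, 27 and 56 reads per 20 M in the low-fat libraries of KO2, KO4 and KO6 and 239, 241 and 299 in their high-fat libraries. All high-fat libraries lay above all low-fat ones, and the log2 difference was 3.04 ± 0.29 (SE), an 8.21-fold rise (limma adjusted p = 0.0307). *Abcc9*, a sulfonylurea receptor subunit of potassium channels in pericytes, went from 17, 42 and 52 to 352, 288 and 254, a log2 difference of 3.01 ± 0.32. *Lrat*, which esterifies vitamin A for storage, went from 7, 31 and 35 to 193, 222 and 130, a log2 difference of 2.96 ± 0.45 (limma adjusted p = 0.0311). *Fcna*, a ficolin made by macrophages, went from 33, 30 and 27 to 731, 167 and 150, a log2 difference of 3.01 ± 0.38. *Fcna* is not in the Kupffer cell list described below. The high-fat level of KO2 stood far above the other 2 mice in *Fcna*, whereas in the stellate cell genes the low-fat level of KO2 was the lowest.

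Among the 18 stellate cell and pericyte markers, 17 were called higher and 0 lower, against 1.31% and 0.392% of all genes tested. The median log2 difference was 2.70 beside -0.03 for all genes tested. The exception was *Nes*, an intermediate filament gene, which went from 5, 9 and 7 to 29, 38 and 30 reads per 20 M without passing the threshold (limma adjusted p = 0.0532). *Hgf*, the ligand of the hepatocyte receptor Met, was read at 11, 50 and 42 in the low-fat and 203, 224 and 142 in the high-fat libraries, a log2 difference of 2.55 ± 0.39. *Reln*, a secreted glycoprotein of stellate cells, rose from 66, 293 and 311 to 1047, 1384 and 1075. Summed over the list, the levels were 261, 865 and 986 in the low-fat and 5041, 4835 and 3876 in the high-fat libraries, ratios of 19.3, 5.59 and 3.93 in KO2, KO4 and KO6. In each of these genes KO2 had the lowest low-fat level, and its summed low-fat level was the lowest of the 3 mice as well. Without KO2, 15 members were called and the median log2 difference was 2.25. Without KO4, 0 were called and the median was 2.84. The markers *Lum* and *Des* passed the filter on low values only because of their high-fat libraries, so their calls are not independent of it. In bulk libraries a larger number of cells of a type and more RNA per cell cannot be told apart.

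Sinusoidal endothelial markers were also higher in the high-fat fraction, with 6 of 15 called higher, 0 lower and a median log2 difference of 1.84. Over all genes tested, 1.31% were called higher and 0.392% lower. *Lyve1*, a hyaluronan receptor, went from 21, 31 and 25 reads per 20 M to 188, 113 and 107, a log2 difference of 2.23 ± 0.37 (limma adjusted p = 0.0344). *Clec4g*, a lectin of sinusoidal endothelium, went from 86, 142 and 149 to 717, 424 and 329, a log2 difference of 1.85 ± 0.31. The other called members were *Kdr*, *Oit3*, *Fcgr2b* and *Gpr182*. For *Stab2*, a scavenger receptor, the levels were 402, 894 and 769 against 2678, 1728 and 1430 without a call (limma adjusted p = 0.0833). The summed level in the high-fat library was 7.69 times that of the low-fat library in KO2, 2.34 times in KO4 and 2.06 times in KO6, so KO2 had the largest ratio here too. Without KO2, 2 members were called and the median was 1.299, and without KO4, 0 were called.

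Kupffer cells are the resident macrophages of the liver. All 14 Kupffer cell and macrophage markers had every high-fat library above every low-fat library, against 8.54% of all genes tested. Yet 1 of the 14 was called higher, against 1.31% of all genes tested. That gene was *C1qc*, a chain of complement C1q, at 31, 37 and 43 reads per 20 M in the low-fat and 703, 176 and 150 in the high-fat libraries, a log2 difference of 2.73 ± 0.49 (limma adjusted p = 0.0418). *Clec4f*, a lectin of mouse Kupffer cells, stood at 65, 146 and 136 against 2458, 539 and 459 (limma adjusted p = 0.0717). *Cd5l*, a secreted macrophage protein, stood at 115, 150 and 196 against 3079, 671 and 686 (limma adjusted p = 0.0597). KO2 differed most: its summed level of the list was 21.6 times as high in the high-fat library, against 3.15 times in KO4 and in KO6. The median log2 difference of the list was 2.66, and 1.77 without KO2, where *C1qc* was no longer called, at 1.98 with a limma adjusted p of 0.061. Without KO4 the median was 3.01 and *C1qc* was at 3.01 with a limma adjusted p of 0.0795.

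**Figure D1:**
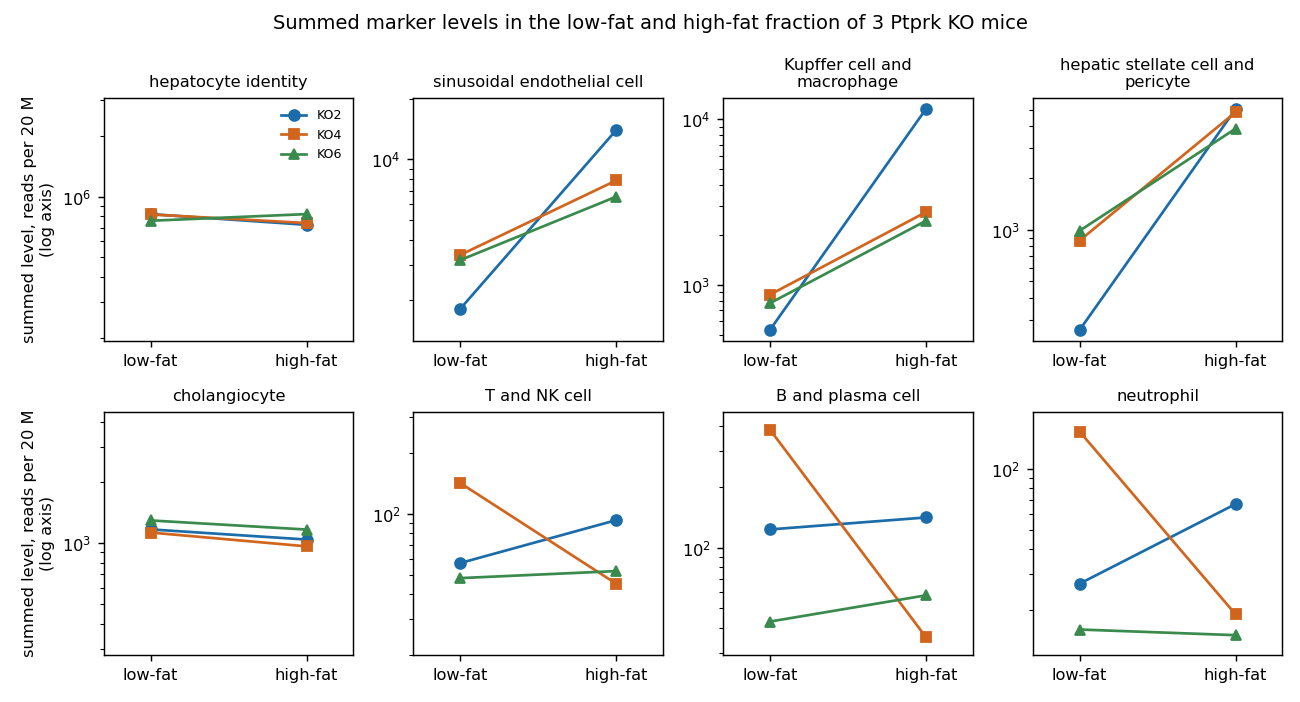
Summed level of marker genes (reads per 20 M, log axis) in the low-fat and high-fat fraction, with 1 line per KO mouse and 1 panel per cell type. The stellate, endothelial and Kupffer cell sums were higher in the high-fat library of all 3 mice, whereas the hepatocyte sum stayed between 725055 and 819123.

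Markers of hepatocytes and of the other cell types had 1 call between them. The summed level of the 15 hepatocyte identity genes lay between 759221 and 818926 in the low-fat and between 725055 and 819123 in the high-fat libraries, and limma called 0 of them, with 1 at an unadjusted p under 0.05. Cholangiocyte markers summed to 1171, 1130 and 1297 in the low-fat and 1043, 965 and 1169 in the high-fat libraries, and 4 of 9 were abundant enough to test. Of these, *Sox9*, a transcription factor of bile duct and progenitor cells, was lower, at 300, 235 and 190 against 214, 149 and 126 (log2 difference -0.63 ± 0.09, limma adjusted p = 0.0311). Portal fibroblast and smooth muscle markers summed to 111 to 175 in the low-fat and 166 to 267 in the high-fat libraries, with 6 of 12 tested and 0 called, and *Actg2* was at 0 in all 6 KO libraries. T and NK cell markers summed to 48 to 142 and 45 to 93, B and plasma cell markers to 43 to 384 and 36 to 141, and neutrophil markers to 16 to 153 and 15 to 67, in each case with the highest sum in the KO4 low-fat library and 0 members called. The 5 mesothelial markers summed to 2 to 6 and were not tested. Of 8 erythroid cell and platelet markers 5 were tested and 0 called (3 at an unadjusted p under 0.05), 4 were lower in the high-fat library of all 3 mice, and the median log2 difference was -1.87. The hemoglobin gene *Hba-a1*, at 66, 330 and 9 reads per 20 M against 48, 19 and 2, was highest in the KO4 low-fat library, and the list medians were -0.61, -3.99 and -0.93 in KO2, KO4 and KO6. Monocyte and lipid-associated macrophage markers had 0 of 8 tested called (2 at an unadjusted p under 0.05), with a median of 0.85 and mouse medians of 2.07, -0.04 and 0.29. Of 77 non-hepatocyte markers tested, 24 were among the 217 higher genes and 1 among the 65 lower genes. How far the cells behind these markers account for the remaining higher genes was not tested.

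Genes of the extracellular matrix were split between members that rose and members that were not called. Of 20 collagen chain genes, 18 were tested, and 9 were called higher and 0 lower, with a median log2 difference of 1.49. Of the 9 not called, 5 had a negative difference, 3 of them in all 3 mice. Besides *Col3a1*, the fibril-associated chain *Col14a1* rose from 31, 118 and 132 to 681, 749 and 552 reads per 20 M, a log2 difference of 2.97 ± 0.37 (limma adjusted p = 0.0307). The basement membrane chain *Col4a1* moved less, from 513, 278 and 251 to 1083, 631 and 495, and its fractions overlapped between mice although each mouse rose (log2 difference 1.02 ± 0.16). Of 27 matrix glycoprotein, proteoglycan and crosslinker genes, 20 were tested, and 10 were called higher and 0 lower, with a median of 1.99 and a negative difference in 4, of which 2 were lower in all 3 mice. Among them were the small proteoglycan *Bgn*, from 49, 93 and 116 to 647, 458 and 372, and *Sparc*, a collagen-binding matrix protein, from 41, 86 and 121 to 520, 409 and 442. The summed levels of both lists were slightly lower in the high-fat library of every mouse, at 0.97, 0.92 and 0.97 times the low-fat sum for the collagens and 0.92, 0.97 and 0.99 times for the matrix list. Those sums were taken up largely by genes that were not called, such as *Col18a1*, which stood at 39799, 40772 and 40246 against 33817, 37092 and 37651 (limma adjusted p = 0.486), and *Fn1*, fibronectin, at 57905, 71939 and 83538 against 56671, 68868 and 79808 (limma adjusted p = 0.838). Both lists share members with the stellate markers (*Col1a1*, *Col1a2*, *Col3a1*, *Dcn* and *Lum*). The smooth muscle and actin list had 1 of 15 tested members called higher, the stellate filament gene *Des*. *Tagln*, a contractile protein gene, was at 76, 102 and 79 against 112, 94 and 72, and *Acta2*, the smooth muscle actin of activated stellate cells, was too low to test.

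**Figure D2:**
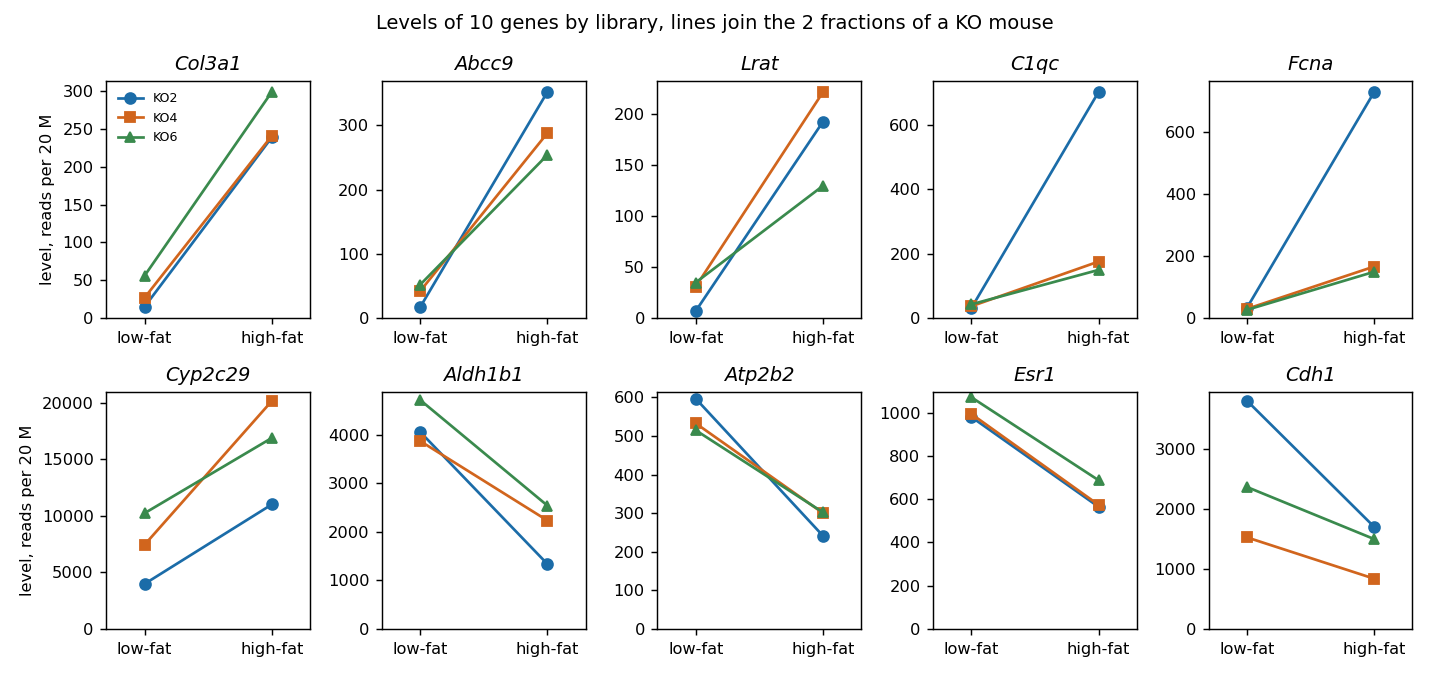
Levels of 10 genes (reads per 20 M) in the low-fat and high-fat library of each KO mouse, joined by a line per mouse, each panel on its own axis from 0. The rise of C1qc and Fcna was steepest in KO2, the other 2 mice ending between 150 and 176, and Aldh1b1, Atp2b2, Esr1 and Cdh1 were lower in the high-fat library of every mouse.

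Hepatocyte genes were ordered by their place in the lobule. All 20 pericentral genes had a positive log2 difference, 18 of them in all 3 mice, and 7 were called higher and 0 lower. All 22 periportal genes had a negative difference, 19 of them in all 3 mice, and 6 were called lower and 0 higher. The median log2 difference was 0.77 for the pericentral and -0.47 for the periportal list, and over all genes tested 43.1% had a positive difference, 13.9% were higher in all 3 mice and 18.1% lower in all 3. The called shares over all genes tested were 1.31% higher and 0.392% lower. Both lists were chosen with earlier results of these data known, so these counts are a description. By mouse, KO2, KO4 and KO6, the pericentral medians were 0.81, 1.26 and 0.50 and the periportal medians -0.55, -0.49 and -0.26, with the smallest size in KO6 in both lists.

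The called pericentral genes were mainly enzymes. *Cyp2c29*, a cytochrome P450, had 3979, 7441 and 10236 reads per 20 M in the low-fat and 11016, 20176 and 16900 in the high-fat libraries, a log2 difference of 1.15 ± 0.16 (limma adjusted p = 0.0307). *Cyp1a2*, a caffeine-oxidising P450, had 5214, 3363 and 5543 against 10523, 8282 and 7887, a difference of 0.88 ± 0.14 (limma adjusted p = 0.0344). Fractions did not overlap in either gene. *Rgn*, a gluconolactonase of ascorbate metabolism, *Gulo*, *Cyp2a5*, *Lhpp* and *Tbx3*, a Wnt-responsive transcription factor, were the others. *Cyp2e1*, the ethanol-oxidising P450, had 29647, 39451 and 42768 against 55304, 70040 and 65014 but did not pass (limma adjusted p = 0.0551). *Glul*, glutamine synthetase, marks the hepatocytes nearest the central vein, and its fractions overlapped, at 8635, 4443 and 7450 against 9124, 9593 and 8466 (limma adjusted p = 0.520). The fractions of *Glul* differed most in KO4.

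Of the periportal genes, *Aldh1b1*, a mitochondrial aldehyde dehydrogenase, had the largest fall, from 4056, 3868 and 4713 to 1334, 2230 and 2537 reads per 20 M (log2 difference -1.15 ± 0.19, limma adjusted p = 0.0344). *Etnppl*, which breaks down phosphoethanolamine, fell from 9475, 8551 and 9053 to 6099, 4217 and 5918 (-0.81 ± 0.09). *Hal*, histidine ammonia-lyase, fell from 19111, 23695 and 24194 to 11820, 14939 and 16983 (-0.68 ± 0.10). The fractions of all 3 genes were separate. *Sds*, serine dehydratase, the steroid hydroxylase *Cyp17a1* and the protease *Ctsc* were also lower. *Pck1*, the gluconeogenic enzyme, had 64657, 86724 and 54210 against 62249, 60500 and 47541 without a call (limma adjusted p = 0.332), and *Arg1*, the last enzyme of the urea cycle, had an adjusted p of 0.261 by limma. Without the mouse term 0 genes of either zonation list were called, the medians being the same. Without KO2, 2 pericentral and 6 periportal genes were called, with medians of 0.78 and -0.37. Without KO4, 0 of either list were called, with medians of 0.66 and -0.47.

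**Figure D3:**
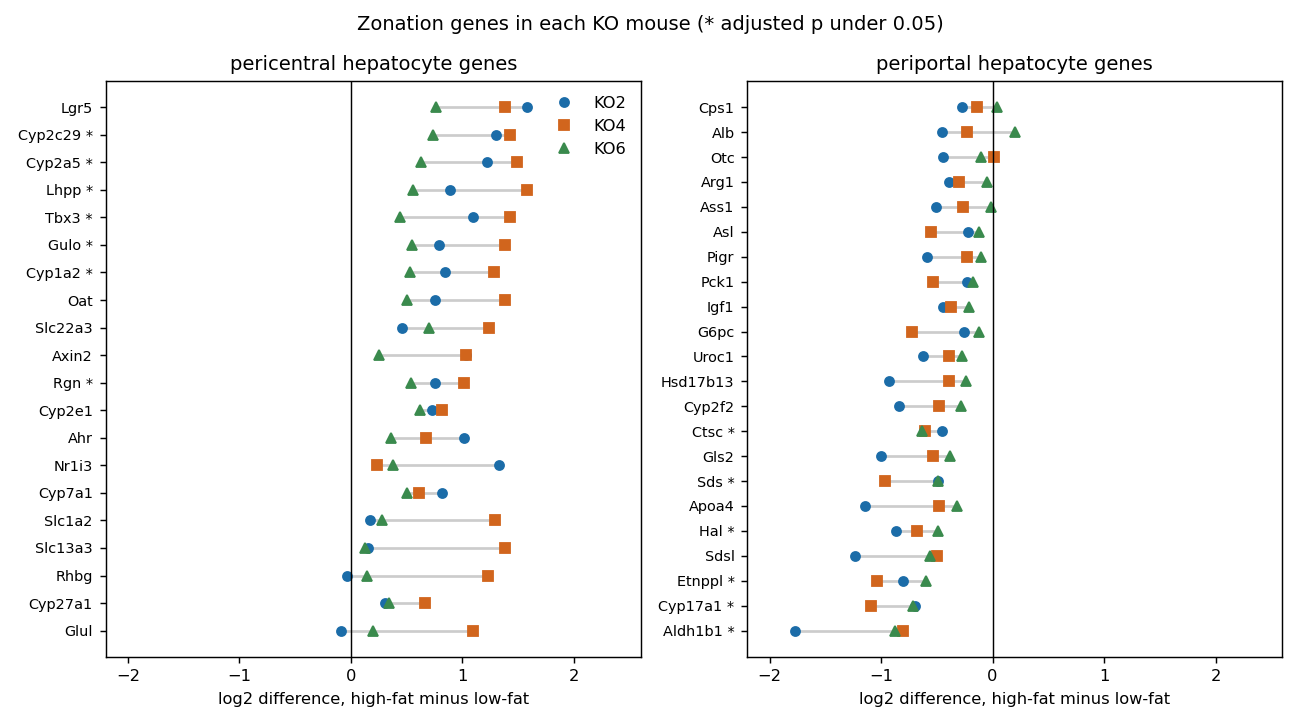
Log2 difference between high-fat and low-fat fraction (horizontal axis) for each pericentral and periportal gene (rows), with 1 point per KO mouse and a star at genes with a limma adjusted p under 0.05. Points of the pericentral genes lie mostly right of 0 and those of the periportal genes mostly left, with 7 and 6 genes starred.

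Promoters of zonated genes are shown because their transcripts moved together within each list. The sequences are the 250 bases upstream of the start given by RefSeq on GRCm38.p6, and capitals mark CTTTGA on either strand, the core bound by TCF factors of the Wnt pathway, a motif chosen after the values were seen. *Cyp2c29* rose and *Aldh1b1* fell, at chr19:39286835-39287084 on the plus strand and chr4:45798772-45799021 on the plus strand.
Cyp2c29: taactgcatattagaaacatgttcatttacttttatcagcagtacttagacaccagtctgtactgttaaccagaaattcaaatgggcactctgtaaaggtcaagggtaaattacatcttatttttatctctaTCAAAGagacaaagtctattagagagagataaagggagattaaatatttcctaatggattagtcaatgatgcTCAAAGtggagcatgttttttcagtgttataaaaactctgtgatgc
Aldh1b1: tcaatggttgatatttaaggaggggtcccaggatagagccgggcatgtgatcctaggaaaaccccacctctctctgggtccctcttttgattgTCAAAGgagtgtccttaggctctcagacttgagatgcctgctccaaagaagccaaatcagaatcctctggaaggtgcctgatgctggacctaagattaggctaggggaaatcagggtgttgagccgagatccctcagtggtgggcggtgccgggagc
The *Cyp2c29* window held 2 matches and the *Aldh1b1* window 1. A match was present in 5 of 12 pericentral and 6 of 15 periportal promoters found in the RefSeq table, against 14.0% of 27025 promoters. The shares were 41.7% in the pericentral and 40.0% in the periportal list. Whether a match goes with the direction of change was not tested. For the Kupffer genes the motif searched was GAGGAA on either strand, the core of PU.1 sites. It occurred in 6 of 11 promoters found, against 23.1% of all promoters, and the window of *C1qc*, at chr4:136892915-136893164 on the minus strand, is shown with its 1 match in capitals as the reverse complement.
C1qc: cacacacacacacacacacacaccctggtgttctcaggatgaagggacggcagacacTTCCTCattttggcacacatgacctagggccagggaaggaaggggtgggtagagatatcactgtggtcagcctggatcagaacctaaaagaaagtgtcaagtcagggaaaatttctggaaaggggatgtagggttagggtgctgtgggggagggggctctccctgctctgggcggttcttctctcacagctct
The CArG box, bound by serum response factor, occurred in 4 of 17 promoters of the smooth muscle and actin list, against 1.4% of all promoters. These matches are descriptions of letters, and binding was not measured.

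Wnt and R-spondin genes had 3 of 23 tested members called higher and 0 lower, against 1.31% and 0.392% of all genes tested. *Rspo3*, the R-spondin ligand of pericentral zonation, was at 2, 4 and 8 reads per 20 M in the low-fat and 34, 32 and 30 in the high-fat libraries, a log2 difference of 2.41 ± 0.33 (limma adjusted p = 0.0307). Low-fat levels of *Rspo3* were near the limit set by 3 reads. It passed the filter on low values only because of its high-fat libraries, so its entry into the test favoured a rise. *Wnt2*, a ligand of sinusoidal endothelium, was at 0, 6 and 13 against 59, 41 and 34 and did not pass (limma adjusted p = 0.0695). Among genes that Wnt induces in hepatocytes, the secreted Wnt inhibitor *Notum* rose from 454, 504 and 566 to 1086, 998 and 841 (0.88 ± 0.13, limma adjusted p = 0.0311), and the feedback inhibitor *Nkd1* from 14, 9 and 22 to 58, 45 and 48 (1.64 ± 0.30). The receptor gene *Lgr5* went from 58, 96 and 126 to 199, 255 and 213 without a call (limma adjusted p = 0.0616). Fractions were separate in all 5 of these genes.

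Of 34 cytochrome P450 genes, 9 were called higher and 1 lower, against 1.31% and 0.392% of all genes tested. Besides the zonation genes they included *Cyp3a11*, the main drug-oxidising P450 of the 3A family, from 7364, 12355 and 14931 to 20794, 32190 and 23831 reads per 20 M (log2 difference 1.13, limma adjusted p = 0.0344), and *Cyp2c37*, from 1349, 2560 and 2331 to 3053, 6450 and 3826. *Cyp4b1*, at 32, 67 and 68 against 332, 176 and 186, had the largest difference of the list. *Cyp3a16* and *Cyp2c53-ps* were among the 5 genes with the smallest p-values, rising from 17, 24 and 42 to 60, 87 and 146 and from 8, 5 and 14 to 36, 32 and 68. *Cyp2c53-ps* is a pseudogene that overlaps *Cyp2c29* on the same strand in the annotation, and P450 genes of a cluster are alike in sequence, so reads may be split between them. Of the other metabolic families, *Aldh3a2*, a fatty aldehyde dehydrogenase, rose from 3928, 5386 and 6204 to 10151, 13038 and 9070 (1.01 ± 0.17), opposite in direction to *Aldh1b1*. In phase II conjugation, the glutathione transferase *Gstm2* was higher and the sulfotransferase *Sult5a1* lower, 1 of 24 each way.

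Genes of fat storage and of fatty acid uptake were counted as separate lists, which were not tested against each other. Of 15 tested lipid droplet protein genes 0 were called, with a median log2 difference of 0.03 and 5 at an unadjusted p under 0.05. Of all genes tested 1.7% were called, so a list of 15 is too short to show a lack of calls. *Plin2*, the main coat protein of hepatocyte droplets, was at 16724, 8436 and 10559 reads per 20 M in the low-fat and 13961, 9438 and 10662 in the high-fat libraries (-0.08 ± 0.12, limma adjusted p = 0.816), being lower in the high-fat library of KO2 and higher in that of KO4. *Cidec*, which drives droplet growth in steatosis, was at 55, 66 and 41 against 82, 102 and 69, with separate fractions but no call (0.58 ± 0.17, limma adjusted p = 0.155). Of 19 fatty acid uptake and binding genes, 3 were higher and 0 lower, where 1.31% of all genes tested were higher. *Cd36*, a fatty acid transporter, rose from 909, 1187 and 1051 to 1378, 2347 and 1360 (0.60 ± 0.11, limma adjusted p = 0.0494). *Pparg*, a lipogenic nuclear receptor, rose in each mouse from 26, 76 and 110 to 91, 215 and 158 (1.19 ± 0.21), and *Lpl*, lipoprotein lipase, from 193, 345 and 421 to 1091, 1013 and 727 (1.55 ± 0.24). Stellate cells, endothelial cells and macrophages also express some of these 3 genes, and the part of those cells in the rise was not tested.

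**Figure D4:**
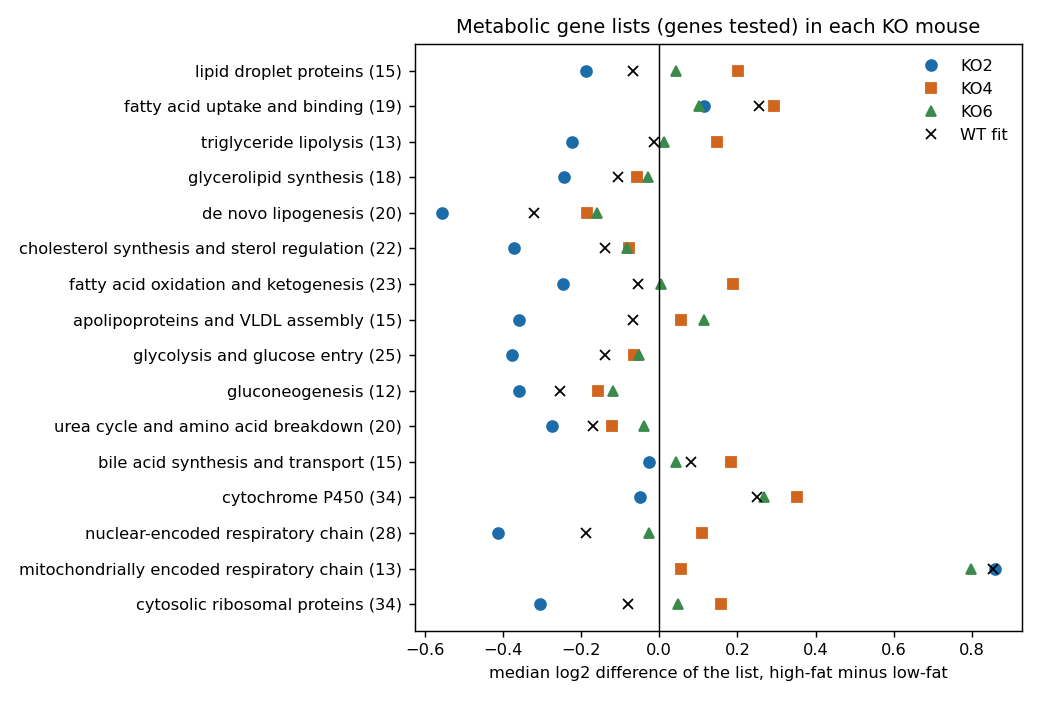
Median log2 difference between high-fat and low-fat fraction (horizontal axis) of metabolic gene lists (rows, with the number of genes tested), for each KO mouse and for the WT fit. The mitochondrially encoded respiratory chain genes sit highest in KO2 and KO6, at 0.86 and 0.80, with KO4 at 0.06. Over the 3 KO mice, lipid droplet genes run from -0.19 to 0.20 and fatty acid oxidation genes from -0.25 to 0.19.

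De novo lipogenesis genes leaned the other way without a call: 18 of 20 had a negative difference, the median was -0.29, and 13 had an unadjusted p under 0.05. Over all genes tested, 43.1% had a positive difference and 2457 of 16563 had an unadjusted p under 0.05. *Acly*, which makes cytosolic acetyl-CoA, went from 18299, 7919 and 12845 to 8913, 5367 and 8786 (-0.77 ± 0.16, limma adjusted p = 0.0607), and *Fasn*, fatty acid synthase, from 30383, 14858 and 41777 to 18161, 13073 and 32084 (limma adjusted p = 0.315). *Scd1*, the main stearoyl-CoA desaturase, was mixed, with KO6 higher in its high-fat library. Lipolysis, glycerolipid synthesis, cholesterol synthesis, bile acid, apolipoprotein and glycolysis genes had 0 calls by limma, with medians between -0.18 and 0.07 and 2, 3, 8, 6, 4 and 9 genes, in that order, at an unadjusted p under 0.05. With 1.7% of all genes tested called, lists of this size are too short to show a lack of calls. Fatty acid oxidation genes had a median of -0.02 and 0 of 23 called, with 1 at an unadjusted p under 0.05, *Cpt1a*, the carnitine shuttle enzyme, being at 12671, 15342 and 14436 against 11871, 14984 and 13345. Gluconeogenesis genes had 1 of 12 called, the aminotransferase *Got1*, which was lower (-0.45 ± 0.09, limma adjusted p = 0.0478). The 13 mitochondrially encoded respiratory chain genes had a median of 0.53 with 0 called (2 at an unadjusted p under 0.05), while the 28 nuclear-encoded ones had a median of -0.11 with 0 called (0 at an unadjusted p under 0.05). Mouse medians of the mitochondrial genes were 0.86, 0.06 and 0.80, lowest in KO4.

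In the TGF-beta pathway 4 of 29 tested genes were higher, the co-receptor *Tgfbr3*, the matrix protein *Tgfbi*, the latency protein *Ltbp4* and the ligand *Bmp2*, and 1 was lower, *Inhba*, a subunit of activin. For this and the next lists, the shares over all genes tested were 1.31% higher and 0.392% lower. *Bmp2*, made by sinusoidal endothelium, rose from 57, 123 and 89 to 471, 352 and 238 reads per 20 M, and *Inhba* fell from 392, 289 and 317 to 250, 156 and 209 (-0.76 ± 0.11, limma adjusted p = 0.0307). Among 25 receptor tyrosine kinase and ligand genes, 6 were higher (*Hgf*, *Pdgfra*, *Pdgfrb*, *Kdr*, *Flt1* and *Ddr2*) and 2 lower (*Fgfr1* and *Fgfr2*). *Fgfr2*, a receptor of fibroblast growth factors, had 1508, 1841 and 1340 against 848, 1224 and 873 (-0.73 ± 0.09). *Met* and *Egfr*, the main growth factor receptors of hepatocytes, were not called (limma adjusted p = 0.542 and 0.219). In the insulin and IGF axis the binding proteins *Igfbp3* and *Igfbp7* were higher and the remaining 21 of 23 genes were not called.

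Junction genes are of interest beside *Ptprk*, whose relatives act at cell contacts. *Cdh1*, E-cadherin, was lower, at 3810, 1528 and 2369 reads per 20 M in the low-fat and 1702, 838 and 1499 in the high-fat libraries (-0.95 ± 0.13, limma adjusted p = 0.0307). Each mouse fell, although its levels differed so much between mice that the fractions overlapped. It was the 1 called gene of 21 tested in the phosphatase and junction list. *Ctnnb1*, beta-catenin, was at 6418, 5715 and 5887 against 5921, 6269 and 5622 (limma adjusted p = 0.781). *Ptprm*, an R2B relative of *Ptprk*, went from 12, 29 and 19 to 168, 68 and 50 without a call (limma adjusted p = 0.112), with KO2 highest, as in the endothelial list. The gene *Esr1*, the estrogen receptor alpha of hepatocytes, fell in all mice by a similar amount, from 980, 994 and 1071 to 564, 573 and 687 (-0.80 ± 0.09, limma adjusted p = 0.0307). *Atp2b2*, a plasma membrane calcium pump, and *Clic5*, a chloride channel protein linked to ezrin, fell from 597, 533 and 515 to 241, 300 and 302 and from 197, 196 and 199 to 100, 112 and 116.

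Acute phase, complement, endoplasmic reticulum stress, interferon, MHC, chemokine, cell cycle, circadian clock, immediate early and ribosomal protein lists had 0 calls each by limma, with medians between -0.21 and 0.09 and 7, 8, 4, 5, 2, 5, 3, 5, 5 and 0 genes, in that order, at an unadjusted p under 0.05. From acute phase to MHC, positive differences numbered 1 of 22, 6 of 28, 1 of 19, 16 of 22 and 9 of 17. From chemokine to ribosomal protein lists they numbered 7 of 13, 15 of 23, 2 of 17, 12 of 19 and 12 of 34. Over all genes tested, 43.1% were positive and 2457 of 16563 had an unadjusted p under 0.05. With 1.7% of all genes tested called, lists of this size are too short to show a lack of calls. Beyond the lists, the 12 largest falls among genes with a mean of at least 100 and separate fractions also held *Igf2bp2*, *Crybg2*, *Cryl1*, *Ctnnbip1*, *Slc3a1*, *Gm4956* and *Arhgef16*. *Cryl1*, an enzyme of glucuronate metabolism, fell from 839, 847 and 862 to 384, 549 and 540, and *Ctnnbip1*, an inhibitor of beta-catenin, fell from 729, 582 and 626 to 368, 385 and 368. *Slc3a1*, a subunit of the cystine transporter, fell from 3286, 2913 and 1991 to 1641, 1825 and 1370. The log2 differences of these 3 genes were -0.86, -0.84 and -0.79, and their fractions were separate.

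The mice differed in the size of the separation. The SD of the log2 difference over all genes tested was 0.922 in KO2, 0.562 in KO4 and 0.494 in KO6. More than 2-fold higher were 2538 genes in KO2, 645 in KO4 and 1160 in KO6, and more than 2-fold lower were 127, 827 and 147. The median of the 217 higher genes was 2.72, 1.62 and 1.43, and that of the 65 lower genes -0.79, -0.64 and -0.52. KO2 had the largest rise in 162 of the 217 higher genes and the largest fall in 43 of the 65 lower genes. Pearson correlations of the differences across genes were 0.17 between KO2 and KO4, 0.58 between KO2 and KO6 and 0.33 between KO4 and KO6, as a description over 16563 genes that share libraries and are not independent. Among genes with a mean of at least 100, *Lyz2*, the lysozyme of macrophages and other myeloid cells, had the widest range over the mice, with log2 differences of 4.77, 0.15 and 1.59 in KO2, KO4 and KO6, followed by *Neat1*, with 2.20, -2.35 and -0.18.

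Set beside the WT mice, the difference between fractions was not shown to be particular to the knockout. No mouse is in both comparisons, though the fit gives them 1 spread. A gene whose WT mice disagreed had a larger spread and was less likely to be called. Agreement among the WT mice in the called genes was therefore partly selected for. All 217 higher genes were also higher in each of the 3 WT mice, and all 65 lower genes were lower in each, with WT medians of 1.66 and -0.61 beside 1.93 and -0.66 in KO. A positive WT difference was found in 47.4% of all genes tested, and 23.2% were higher and 29% lower in all 3 WT mice. A selection by the separation of the KO fractions, made without the fit, gave shares in the same direction. Of the 1414 genes whose KO fractions were separate and higher, 79.9% were higher in all 3 WT mice. Of the 437 separate and lower, 78.3% were lower in all 3. WT values still entered this selection through the filter on low values, which counted the libraries of both genotypes. How far the filter raised these shares was not tested. In WT, limma called 0 genes (0% of those tested), with 3213 at an unadjusted p under 0.05 and a smallest adjusted p of 0.0550.

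The test of the difference itself, the KO difference minus the WT difference, called 0 of 16563 genes (0%), with 67 at an unadjusted p under 0.05. The smallest limma adjusted p was 1.0. Stellate markers had a median of 2.28 in WT beside 2.70 in KO, endothelial markers 1.498 beside 1.84, Kupffer markers 1.89 beside 2.66, pericentral genes 0.73 beside 0.77 and periportal genes -0.44 beside -0.47. *Cyp2c53-ps* was 0.89 ± 0.32 higher in KO than in WT as a difference of differences, with an unadjusted p of 0.0243 and an adjusted p by limma of 1.0. The gene *Ank3* had a smaller unadjusted limma p of 0.00546, at -0.52 ± 0.14, and was not called. Its log2 differences were 0.46, 0.56 and 0.20 in WT1, WT5 and WT6 and -0.13, 0.02 and -0.24 in KO2, KO4 and KO6. For *Cdh1* the difference of differences was 0.04 ± 0.18 and for *Aldh1b1* -0.00 ± 0.27.

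**Figure D5:**
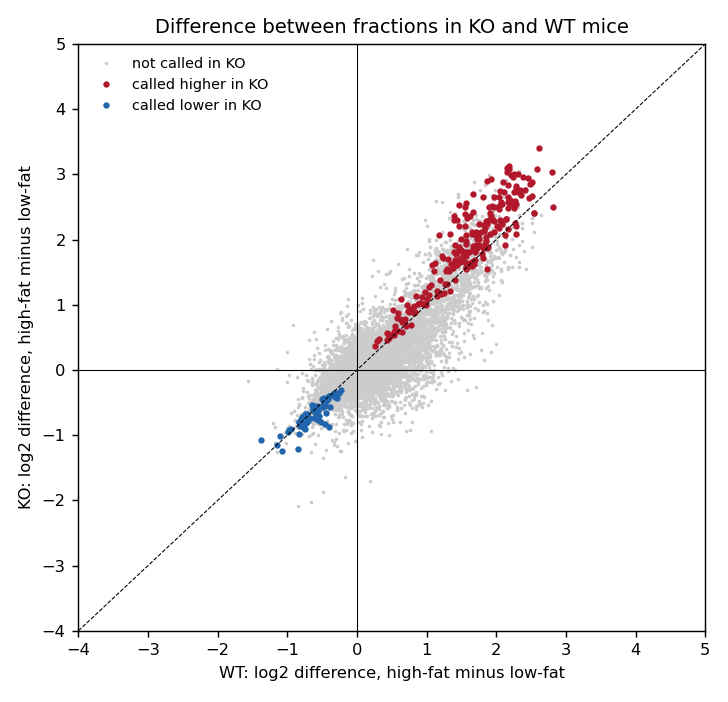
Log2 difference between high-fat and low-fat fraction in WT (horizontal axis) against KO (vertical axis), with 1 point per gene tested and the 217 higher and 65 lower genes of the KO comparison in colour. The coloured genes lie in the same quadrant in WT as in KO, near the dashed line of equal differences.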

How the data were processed

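PolyA RNA of low-fat and high-fat hepatocyte fractions from 3 KO and 3 WT mice was sequenced. The deposited values are a score: the authors scaled each library's gene read counts to 20 M and rounded up, as read from the values themselves (column sums of 20.006 to 20.0137 M and gaps among low values), so no count model was used. The submitters' processing notes name the genome build mm9; aligner, read counter, annotation and strandedness are not given in the sources used here. Depth was estimated from the gaps. Genes with 10 or more in 3 or more libraries were rescaled by a trimmed mean of M values implemented in a script, then put on the log2(value + 2) scale, which understates the change of low genes. limma 3.58.1 in R 4.3.3 fitted genotype and fraction with a term per mouse and an intensity trend over all 12 libraries, two-sided, with Benjamini-Hochberg adjustment over 16563 genes. The scripts were checked on simulated data. Pairing comes from the mouse names in the labels: deviations of a mouse's fractions from their group means correlated at 0.04 (KO2), -0.01 (KO4), 0.46 (KO6), 0.50 (WT1), 0.47 (WT5) and 0.58 (WT6).

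The members, the 52 gene lists and the naming rule were chosen with earlier results of these data known. Named were Ptprk, the 12 largest rises and falls among called genes with a mean of at least 100 and separate fractions, the 5 smallest p-values, up to 4 called members of each list, the 6 widest ranges over mice and the genes with the smallest p for KO minus WT; other genes were chosen after their values were seen. GENCODE served only to find overlapping genes, which 68 of 139 named genes have; without known strandedness their reads cannot be told apart.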

Additional observations from a re-analysis of the deposited data

Results flagged for a closer look

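Among the 139 named genes, the only ones checked for this, 3 had every KO mouse moving one way between fractions and every WT mouse the other. That pattern is not a test, and limma's test of the difference of differences passed for none of them (adjusted p = 1.0 each). *Abca5* was higher in the high-fat fraction of the KO mice and lower in that of the WT mice, a KO minus WT log2 difference of 0.40. *Angptl8*, a hepatokine gene, was lower in KO and higher in WT, a difference of -0.39. Both *Abca5* and *Angptl8* were named for a small p of KO minus WT, so their pattern was partly selected for. *Gm13012* was lower in KO and higher in WT, a difference of -1.63, at levels of 4 to 21 reads per 20 M in the KO libraries.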

How the results depend on the processing

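The calls moved with the settings. Against 217 higher and 65 lower genes in KO, no replicate block (no mouse term for the pairing) gave 134 and 5, a same-mouse correlation 494 higher, the fit of only the KO libraries 0 and 0 with the mouse block and 0 and 0 without, no intensity trend 3 and 0, a filter of 50 gave 129 higher, and no filter on low values 37 lower. Leaving out 1 mouse gave 0 to 140 higher and 0 to 35 lower. Against 0 in WT, the same-mouse correlation gave 409 calls, the deposited scaling alone 173, a pseudocount of 10 gave 194, trimmed-mean scaling over all genes of the table (chosen after seeing the data) 185, and leaving out 1 mouse 0 to 1496. The difference of differences had 0 calls under each alternative, with 24 to 1311 genes at an unadjusted p under 0.05. The cause was not tested. Leaving out 1 mouse reversed the log2 difference of 10 named genes, none of them called, over these ranges: *Kcnq1ot1* -0.117 to 0.785, *Gm28006* -1.07 to 1.14, *Gm27533* -1.03 to 1.05, *Gm27505* -1.11 to 1.07, *Csf3r* -1.04 to 1.39, *Gcgr* -0.125 to 0.0841, *Neat1* -1.27 to 1.01, *Cd3e* -0.360 to 0.400, *Lck* -1.56 to 0.327 and *Ighm* -1.77 to 0.127. *Csf3r* also reversed with a pseudocount of 10 (-0.0614), *Gcgr* under the deposited scaling (0.0312) and a filter of 50 (0.0161), and *Gm27505* under the same settings (0.0199 and 0.0048). Values with 1 mouse left out rest on 2 mice in that group. Low-fat levels at or below about 3 reads in 1 or more KO mice limit what the differences of *Rspo3*, *Wnt2*, *Lum*, *Des*, *Col6a3*, *Postn* and *Igfbp3*, among others, can show. Of these, *Rspo3*, *Lum* and *Des* passed the filter on low values only because of their high-fat libraries, which favours a rise.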
